A study of Mus musculus with 4 samples.

Results

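The genes described here are 10 that mark goblet cells of the intestine: Atoh1, Spdef, Ern2, Agr2, Sytl2, Spink4, Zg16, Fcgbp, Clca3 and Retnlb. They were chosen by name, and their probes were found by the symbol in the scanner table or an older or newer synonym. All 10 had a probe, 16 probes in all among 45281 on the array. Fcgbp was listed as A430096B05Rik and Zg16 as 1810010M01Rik, while Clca3 is an older name of the gene that RefSeq now calls Clca1. Of these genes 9 passed the filter on dim probes and were tested, through 12 probes, among 13906 genes and 20214 probes tested in all. The tissue was intestinal tumours of ApcMin/+ mice on the C57BL/6J background, aged 30 weeks. Apc restrains Wnt signalling, and mice with the Min allele of it form adenomas along the intestine. The large group was made of tumours of 4 to 5 mm in diameter and the small group of tumours of at most 2 mm. Each array held a pool of 3 tumours, and each of 2 mice gave a large pool and a small pool, so that a group held 2 arrays. Both groups share genotype, strain and age, and no normal mucosa was analysed here.

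Goblet cells are the mucus-secreting cells of the intestinal epithelium. They arise from progenitors in which Notch signalling is low and the transcription factor Atoh1 is on, and they mature under the transcription factor Spdef. The mucin Muc2 is folded in the endoplasmic reticulum with the help of the disulfide isomerase Agr2 and of the stress sensor IRE1-beta, the product of Ern2. It is then stored in granules and released together with products such as Clca1, Fcgbp and Zg16. Muc2 and Tff3, the goblet cell mucin and trefoil peptide, were detected on all 4 arrays, as were 8 of the 10 genes. In bulk tumour RNA, fewer goblet cells and less RNA per goblet cell cannot be told apart.

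Across the arrays between 18969 and 19990 probes were detected, where a probe counts as detected when its detection p against the negative controls is under 0.05. The standard error over beads of the 9 tested genes ran from 2.56% to 8.53% of the signal, over 21 to 56 beads a probe. The array of small tumours from mouse 2 was the least like the others, Pearson r across probes (which are not independent replicates) being 0.936 to 0.949 for pairs with that pool and 0.961 to 0.977 for pairs without it. The number of arrays, 2 a size, limits the precision of every value, and for 2 against 2 the smallest two-sided p of an exact permutation test is 0.333. Values below are normalized log2 intensities and differences between them, large minus small. The test was limma across all probes with Benjamini-Hochberg adjustment, without the mouse as a term unless stated.

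The large pools held more signal of some goblet cell genes than the small pools and less of others. Spdef, Agr2, Spink4 and Sytl2 were higher in large than in small pools of both mice, and Fcgbp, Clca3 and Retnlb were lower in both. Zg16 differed by less than 0.1 in either mouse, and Ern2 was higher in mouse 1 with the same value in both pools of mouse 2. Higher in both mice were thus 4 of 9 tested and lower 3 of 9, the shares over all tested genes being 30.7% for higher and 26.7% for lower. Both large pools lay above both small pools for 3 genes (Spdef, Agr2 and Spink4), and below them for Fcgbp alone. Over all genes 22.2% lay above and 17.6% below in this way, so that neither count set these genes apart from the rest of the array. None of the 9 passed limma (adjusted p of 0.588 to 0.987), where 0% of all probes did, and Spdef and Agr2 alone had an unadjusted p under 0.05 (7.23% of all genes). With the mouse as a block none passed either (limma adjusted p of 0.228 to 0.989), where 0.594% of all probes did. Of all genes 0.41% passed as higher and 0.273% as lower in that fit, and Spdef and Agr2 again had an unadjusted p under 0.05 (10.6% of all genes). The median difference of the 9 genes was 0.19 in mouse 1 and 0.02 in mouse 2, against 0.03 and 0.01 over all genes.

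**Figure D1:**
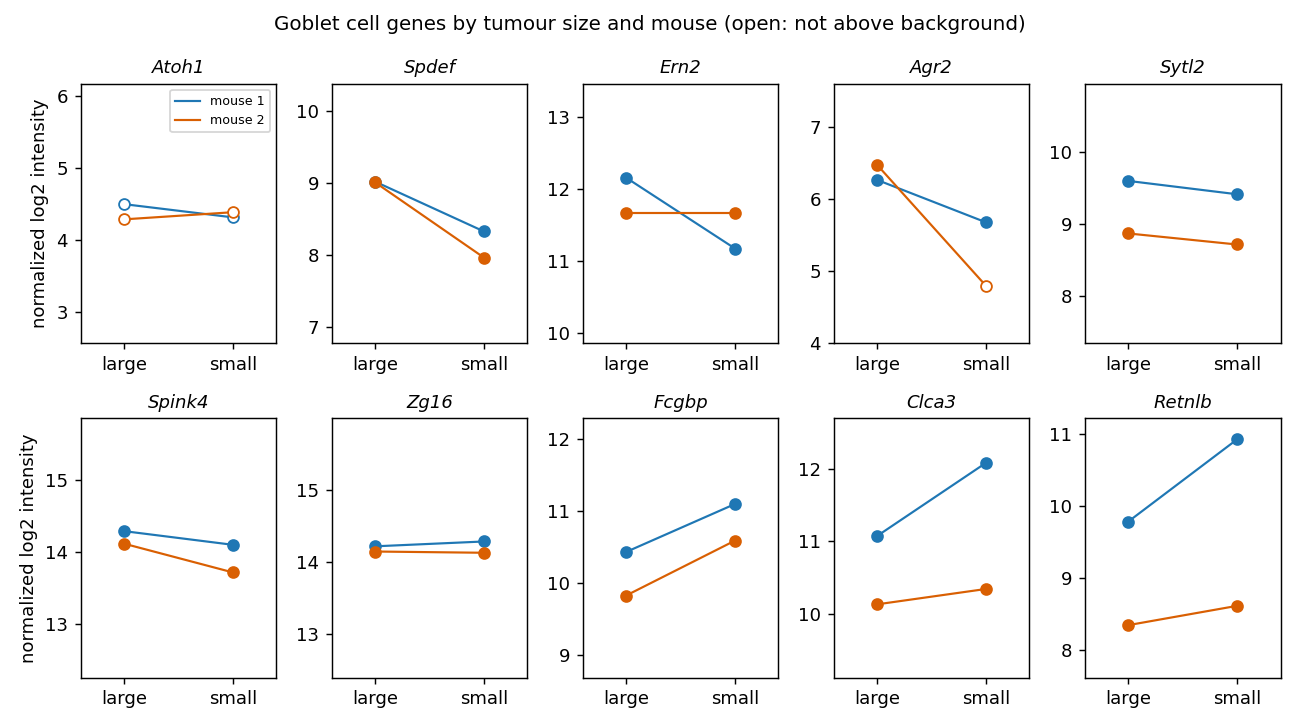
Normalized log2 intensity (vertical axis, the same span in every panel) of the 10 goblet cell genes in large (left) and small (right) pools; a line joins the pools of a mouse and open circles mark values not above background. Spdef and Agr2 lie higher in large pools of both mice, Fcgbp, Clca3 and Retnlb lie lower there, and all 4 Atoh1 values are open.

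Of the 10 genes 4 matched the RefSeq table of promoters: Spdef, Agr2, Fcgbp and Atoh1. Spdef, Agr2 and Fcgbp are shown, since their large and small pools did not overlap, the first pair being higher and Fcgbp lower in large tumours. Each runs 5′ to 3′ from 250 bases before to 50 after an annotated start, build GRCm38.p6. Capitals mark letters found by a search of both strands for CAGCTG (an E-box of the kind bound by factors such as Atoh1), CCGGAT (an ETS factor core preferred by Spdef), TGTTTAC (FOXA factors) and TTTATNG (CDX factors).
Spdef, chr17:27728902-27729201, minus strand: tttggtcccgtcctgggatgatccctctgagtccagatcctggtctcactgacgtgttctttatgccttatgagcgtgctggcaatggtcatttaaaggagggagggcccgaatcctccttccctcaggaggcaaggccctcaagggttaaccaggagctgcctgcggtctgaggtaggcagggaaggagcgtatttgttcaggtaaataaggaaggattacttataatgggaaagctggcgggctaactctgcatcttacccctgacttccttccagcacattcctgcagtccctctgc
Agr2, chr12:35992675-35992974, plus strand: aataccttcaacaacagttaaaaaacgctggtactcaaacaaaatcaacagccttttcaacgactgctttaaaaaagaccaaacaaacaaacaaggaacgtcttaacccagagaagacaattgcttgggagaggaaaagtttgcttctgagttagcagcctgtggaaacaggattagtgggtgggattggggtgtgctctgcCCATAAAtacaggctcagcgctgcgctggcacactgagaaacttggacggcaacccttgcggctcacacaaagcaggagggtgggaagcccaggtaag
Fcgbp, chr7:28070986-28071285, plus strand: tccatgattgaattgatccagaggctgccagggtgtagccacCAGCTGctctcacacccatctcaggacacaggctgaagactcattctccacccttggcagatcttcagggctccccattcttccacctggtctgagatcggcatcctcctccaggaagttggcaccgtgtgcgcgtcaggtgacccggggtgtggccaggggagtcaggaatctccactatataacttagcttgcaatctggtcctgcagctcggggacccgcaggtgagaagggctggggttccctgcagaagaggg
The Fcgbp window held CAGCTG at position -208 from the start, a motif found in 16.3% of 32851 promoter windows. The Agr2 window held TTTATNG on the minus strand at position -48, a motif found in 10.9% of windows. CCGGAT (6.04% of windows) and TGTTTAC (3.65%) were not in these 3 windows, nor were any of the 4 motifs in the Spdef window. A match describes letters only, and the 4 motifs did not overlap one another here.

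Among the regulators, Atoh1, the factor that commits progenitors to the secretory lineage, was not well above background on any array, so that no difference is given for it. Spdef had values of 9.01 and 9.004 in the large pools of mouse 1 and mouse 2, against 8.32 and 7.96 in the small pools. Both large pools were nearly equal and above both small pools. The mean was 9.01 ± 0.01 in large and 8.14 ± 0.26 in small pools (SD, n = 2 each), a 1.82-fold difference. The log2 difference of 0.87 had a 95% interval of 0.17 to 1.57 (limma adjusted p = 0.589, higher in 2 of 2 mice). Within mice the difference was 0.69 and 1.04.

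Ern2 encodes IRE1-beta, the endoplasmic reticulum stress sensor of mucus-secreting epithelia. Its values were 12.16 and 11.66 in large pools and 11.18 and 11.66 in small pools of mouse 1 and mouse 2. The difference thus lay in mouse 1 (0.98, or 1.98-fold) and was 0.00 in mouse 2, where the unnormalized signals were 3486 in the large and 3406 in the small pool. Over both mice it was 0.49 (95% interval -0.30 to 1.29; limma adjusted p = 0.721). It was 0.24 without the large and 0.25 without the small pool of mouse 1, and 0.74 without the large and 0.73 without the small pool of mouse 2. Under median scaling in place of quantiles Ern2 differed by 0.90 in mouse 1 and 0.065 in mouse 2. Agr2, the disulfide isomerase that mucin folding needs, had values of 6.26 and 6.47 in large pools, against 5.67 and 4.79 in small pools. The large pools were the higher ones in both mice, and the small pool of mouse 2 was not well above background. The difference was 0.59 in mouse 1 and at least 1.64 in mouse 2, and over both mice 1.13, or 2.19-fold on the measured means (95% interval 0.26 to 2.01; limma adjusted p = 0.588). Its probe was dim, with unnormalized signals of 115 and 122 in large pools against 87.3 and 67.5 in small pools, where array medians were 59.1 to 63.0. The bound in mouse 2 holds for the background correction used: with none the Agr2 difference there was 0.96 (0.66 over both mice), and with an offset of 50 it was 0.99 (0.69 over both). Without the small pool of mouse 2 the Agr2 difference was 0.69.

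Sytl2 encodes a synaptotagmin-like protein that ties Rab27-bearing granules to the plasma membrane, a role known for mucus granules in mouse stomach. Its brightest probe had values of 9.60 and 8.87 in large and 9.41 and 8.71 in small pools of mouse 1 and mouse 2. The mice lay further apart than the sizes did. The size difference was 0.17 (95% interval -0.75 to 1.09; limma adjusted p = 0.920), and 0.19 and 0.15 within mice. It was -0.20 without the large pool of mouse 1 and -0.18 without the small pool of mouse 2. In those fits the sizes no longer hold the same animals in equal shares, so the difference between mice enters the values. The 2 other tested probes of Sytl2, near background, differed by -0.26 and -0.13, and its remaining 2 probes were not above background on any array.

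The secreted products went different ways. Spink4, a Kazal-type protease inhibitor of goblet cells, had values of 14.29 and 14.12 in large pools, against 14.10 and 13.72 in small pools. The groups did not overlap, but the gap between the lower large and the higher small pool was narrow. The difference was 0.29, or 1.23-fold (95% interval -0.42 to 1.01; limma adjusted p = 0.811). It was 0.10 without the small pool of mouse 2 and 0.49 without that of mouse 1. Zg16, a lectin-like protein that binds bacterial cell walls, had 14.21 and 14.14 in large and 14.28 and 14.12 in small pools. Its difference of -0.02 had a 95% interval of -0.70 to 0.65 (limma adjusted p = 0.987), so a shift of that size either way could not be told from none. It turned positive without the small pool of mouse 1 (0.053), with the large pool of mouse 2 left out (0.01) and under median scaling in place of quantiles (0.040). Muc2 was similarly placed, at 14.43 and 13.82 in large against 14.37 and 14.12 in small pools (difference -0.12, 95% interval -0.90 to 0.66).

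Fcgbp, the large mucus protein that is cross-linked into the Muc2 gel, was the member lower by a like amount in each mouse. It had 10.43 and 9.82 in large pools of mouse 1 and mouse 2, against 11.09 and 10.59 in small pools. Both large pools lay below both small pools. The difference was -0.71, with small pools 1.64-fold higher (95% interval -1.54 to 0.12; limma adjusted p = 0.669), and it was -0.67 and -0.76 within mice. It was -0.41 without the large pool of mouse 2 and -0.46 without the small pool of mouse 1. A second Fcgbp probe was not above background on any array.

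Clca3, a secreted metalloprotease of the mucus, had 11.08 and 10.13 in large pools, against 12.09 and 10.34 in small pools. The small pool of mouse 1 was the high array, and the mouse 2 pools lay close together. The difference was -1.01 in mouse 1 and -0.21 in mouse 2, and -0.61 over both (95% interval -2.03 to 0.81; limma adjusted p = 0.799). The other Clca3 probe gave -0.997 and -0.14 within mice. Retnlb, a resistin-like antibacterial and type 2 cytokine-induced goblet cell protein, followed the same order. It had 9.78 and 8.35 in large pools, against 10.93 and 8.62 in small pools. The difference was -1.14 within mouse 1 and -0.27 within mouse 2, and -0.70 over both (95% interval -2.54 to 1.13; limma adjusted p = 0.826). With the mouse as a block the interval of Retnlb narrowed to -1.46 to 0.06 (limma adjusted p = 0.498). Without the small pool of mouse 1 the differences of Clca3 and Retnlb over the remaining arrays were 0.26 and 0.45, and without the large pool of mouse 2 that of Retnlb was 0.01. With an array left out, large and small pools no longer hold the same animals in equal shares.

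**Figure D2:**
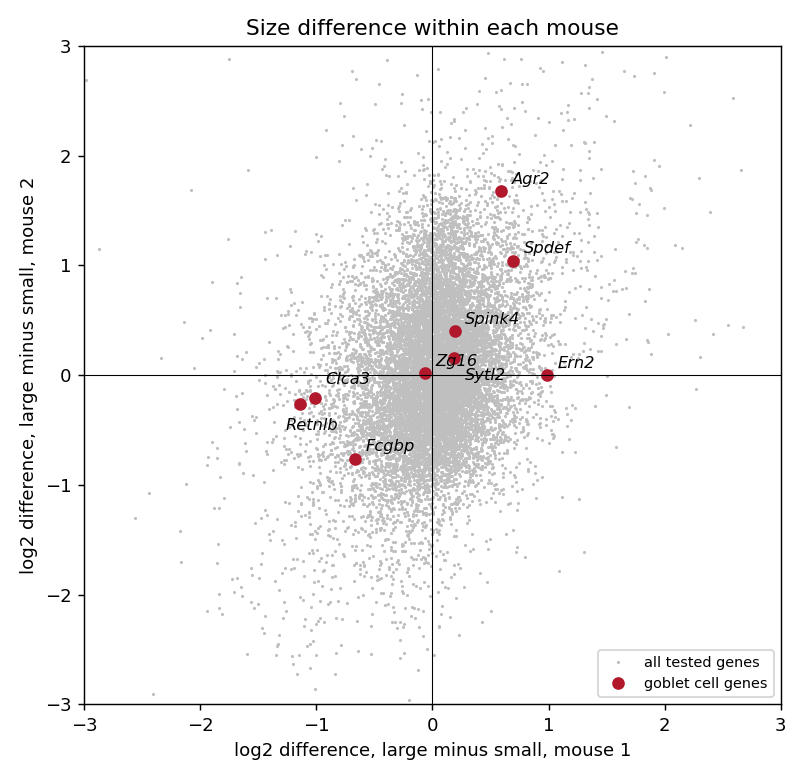
Log2 difference, large minus small, in mouse 1 (horizontal) and mouse 2 (vertical) for all tested genes (grey; 44 genes lie beyond 3 on either axis) and the 9 tested goblet cell genes (red, named). Spdef and Agr2 sit at the upper right, Fcgbp, Clca3 and Retnlb at the lower left, and Ern2 on the line of no difference in mouse 2.

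For some products the 2 mice lay further apart than the tumour sizes did. Mouse 2 minus mouse 1, Retnlb differed by -1.44 in large and -2.31 in small pools. Clca3 differed between the mice by -0.95 in large and -1.75 in small pools, and Sytl2 by -0.73 and -0.70. Averaged over sizes, the difference between mice exceeded that between sizes in 4 of 9 genes. Zg16 was among them, with only -0.11 between mice and -0.02 between sizes. That count was not made over all genes. Over all tested genes the median absolute difference between mice was 0.26 in large and 0.42 in small pools. Between sizes it was 0.23 in mouse 1 and 0.46 in mouse 2. Of the 9, 7 were lower in mouse 2 in both sizes, against 25.4% of all genes. The exceptions were Agr2, at 0.21 in large and -0.88 in small pools, and Ern2, at -0.50 and 0.49. With 2 animals no test of a difference between mice, or of a size difference that varies between them, was made. Each mouse gave a single pool and array a size, so animal, pooled tumours and array cannot be told apart.

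**Figure D3:**
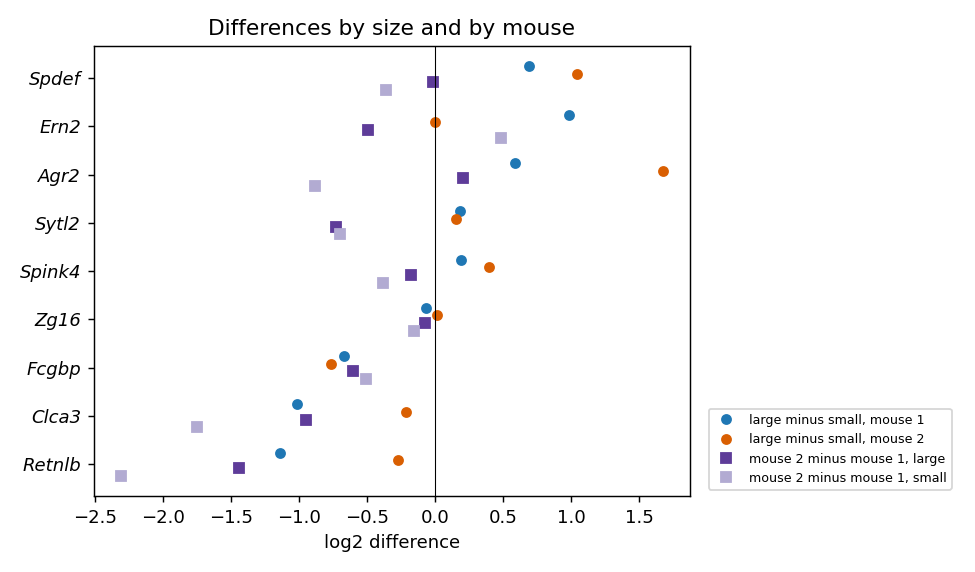
Log2 differences of the 9 tested goblet cell genes: circles give large minus small within each mouse, squares mouse 2 minus mouse 1 within each size. For Retnlb, Clca3 and Sytl2 the squares lie further from 0 than the circles of mouse 2, and for Spdef the circles lie further out. For Clca3 the circle of mouse 1 (-1.01) lies further out than the square of large pools (-0.95).

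Relatives of these genes were read from the same arrays. In the Clca family, 7 of 8 tested probes, those of Clca3, Clca4, Clca4b and Clca6, were lower in large pools of both mice, with differences of -0.36 to -1.10 in mouse 1 and -0.14 to -1.83 in mouse 2. Clca3, Clca4b and Clca6 each had a pair of these probes, which are not independent, so that the 7 probes stand for 4 genes. Of all tested genes 26.7% were lower in both mice. None of the 7 passed (limma adjusted p of 0.603 to 0.803, and 0.287 to 0.601 with the mouse block). Clca4 had the widest difference in mouse 2, with 11.07 and 10.32 in large against 11.42 and 12.14 in small pools. The remaining probe, of the pseudogene Clca4c-ps, was near background and differed by 0.00 in mouse 1 and -0.22 in mouse 2, both mouse 2 pools being not above background. Clca1, Clca2 and Clca5, as the file names them, were not above background on any array. These genes are close relatives in sequence and older names among them were reassigned, so a probe cannot be tied to a single gene from the files. Agr3, the paralog of Agr2, was not well above background in either small pool and was at least 0.46 higher in the large pool of mouse 1 and at least 1.44 in that of mouse 2 (limma adjusted p = 0.588). Among resistin-like genes Retnlg, a gene of neutrophils, went the other way from Retnlb. It had 8.40 and 8.38 in large against 7.01 and 6.26 in small pools, 1.39 and 2.12 higher within mice. It passed with the mouse block (limma adjusted p = 0.0437) and not without it (limma adjusted p = 0.569). With the block, that call was lost with no background correction and with an offset of 50, where 0 probes passed. Retnla was not above background on any array and Retn was on 1 array only. Of the Sytl genes, Sytl4 differed by -0.08 and 0.34, and Sytl5 was above background on 1 array. The probes of Sytl3 disagreed: the brightest differed by -0.90 or less in mouse 1, where the large pool was not above background, and by 0.33 in mouse 2, and another by 0.58 and 0.08.

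Goblet cell genes outside the 10 were mixed too. Of 32 listed, 31 had a probe and 23 were tested: 8 were higher in both mice and 3 lower. Their median difference was 0.08 in mouse 1 and 0.40 in mouse 2. None passed with or without the mouse block. The largest differences were those of Creb3l4 and Creb3l1, transcription factors held in the endoplasmic reticulum membrane, and Ramp1, a subunit of the receptor for the neuropeptide CGRP. Creb3l4 had 9.52 and 9.72 in large against 8.51 and 7.41 in small pools, a difference of 1.66 (95% interval 0.69 to 2.63; limma adjusted p = 0.588, and 0.0726 with the mouse block). Creb3l1 differed by 0.95 and 1.07 within mice and Ramp1 by 0.65 and 2.15. Foxa3, a forkhead factor of goblet cells, differed by 0.69 and 0.55, and the kallikrein gene Klk1 by 0.15 and 1.37. Nlrp6, an inflammasome sensor with a role in mouse goblet cell secretion, differed by -0.52 and -0.88. Tff3 went opposite ways, with 12.51 and 12.63 in large against 12.91 and 11.74 in small pools. Capn9, Hepacam2, Tspan13, Best2, St6galnac1, B3gnt6, Tgm3 and Sval1 were not above background on any array.

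Among regulators of the secretory lineage and of Notch, 11 of 19 tested were higher in both mice, Spdef among them, while 4 were lower, and none passed. The shares over all tested genes were 30.7% for higher and 26.7% for lower. Sox4, a factor of early secretory progenitors, differed by 1.12 in mouse 1 and 0.99 in mouse 2 (limma adjusted p = 0.588). Sox9, a factor of the crypt base, differed by 1.04 and 0.26, the Notch target Hey1 by 0.49 and 1.01, and the forkhead gene Foxa1 by 0.41 and 0.42. Dll1, a Notch ligand of secretory progenitors, differed by -0.26 and -1.22. Neurod1, Pax4, Pax6, Pou2f3 and Jag1 were, like Atoh1, not above background on any array.

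Genes of mucin folding and the IRE1 branch were mixed. Of 25 tested, 7 were higher and 9 lower in both mice, none passed, and the medians were 0.00 and -0.04. Edem1, which sends misfolded glycoproteins to degradation, had 6.09 and 5.64 in large against 6.97 and 7.58 in small pools (difference -1.41, 95% interval -2.23 to -0.59; limma adjusted p = 0.588, and 0.120 with the block). Sec61b, a subunit of the translocon, differed by 0.09 and 1.34, and the disulfide isomerase gene Pdia3 by -0.26 and -0.88. Xbp1, the transcription factor that IRE1 activates, differed by -0.06 and -0.60, and Ern1, the broadly expressed relative of Ern2, by -0.46 and -0.09.

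Of 21 tested genes of granule exocytosis 8 were higher and 6 lower in both mice, and none passed. Rab3d, a small GTPase of secretory granules, differed by 0.59 in mouse 1 and 0.96 in mouse 2. Stx11, a SNARE protein gene, differed by 0.51 and 1.43, the granule SNARE gene Vamp8 by 0.01 and 1.35, and the Rab27 effector gene Myrip by 0.53 and at least 0.57. Exph5, another Rab27 effector gene, was not well above background in large pools and lay lower there, its difference being -0.65 or less in mouse 1 and -1.11 or less in mouse 2. Syt7, a calcium sensor of vesicle fusion, differed by -0.45 in mouse 1 and was below background in mouse 2, and Rab27a, the partner of Sytl2, by -0.17 and 0.64.

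Type 2 cytokines act on goblet cells and raise Retnlb and Clca1. Of 12 tested genes of that response, 3 were higher and 3 lower in both mice, and none passed. The chitinase-like gene Chil3 differed by at least 1.38 in mouse 1 and by 1.22 in mouse 2, Chil4 by 0.75 and 1.00, and the arginase gene Arg1 by 0.51 and 2.18. The signal transducer Stat6 differed by -0.44 and -0.40, the receptor gene Il13ra1 by -0.03 and -0.79 and the receptor gene Il1rl1 by -0.001 and -0.10. Il4, Il5, Il25 and Tslp were not above background on any array. The cytokine genes Il13 and Il33 passed the filter and were among the 6 tested genes neither higher nor lower in both mice.

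Markers of other cell types were measured beside these genes, and their part in the goblet cell values was not tested. Enterocyte markers were lower in large pools of both mice in 14 of 16 tested, with medians of -1.22 and -1.14, and summed to 31979 and 58021 (linear normalized intensity) in large against 54353 and 93826 in small pools. Fabp1, Fabp2 and Slc2a5 were not above background on any array. Gastric mucous and Brunner gland markers were higher in 9 of 14, with medians of 0.65 and 2.22, and summed to 28597 and 45299 in large against 22111 and 22428 in small pools. Tuft cell markers were higher in 5 of 8 and lower in 0 (medians 0.14 and 0.92), with Pou2f3, Il25 and Rgs13 among those not above background on any array, and summed to 2268 and 2461 in large against 1469 and 1168 in small pools. Paneth markers were higher in 3 and lower in 5 of 14, with sums of 126022 and 116956 in large against 149328 and 121466 in small pools. Enteroendocrine markers were higher in 2 and lower in 3 of 15, with sums of 3206 and 2992 in large against 5228 and 2210 in small pools. The general epithelial markers were higher in 2 and lower in 4 of 8, with sums of 42546 and 43845 in large against 45949 and 53326 in small pools. Stem cell and Wnt genes were higher in 10 and lower in 2 of 15, stroma genes higher in 9 and lower in 0 of 14, immune genes higher in 2 and lower in 3 of 8, and proliferation genes higher in 2 and lower in 0 of 9. With the mouse block (limma) 5 gastric genes, S100a8, S100a9 and Lum passed as higher, and the enterocyte genes Ada and Apoc3 as lower, where 0.41% of all genes passed as higher and 0.273% as lower. With no background correction or an offset of 50 no probe passed with the block, so that these calls ended there. The lists were chosen with earlier results of these data known, so their counts are not independent of the data. The 9 goblet cell genes summed to 49443 and 42529 in large against 49372 and 38517 in small pools, and both sums of mouse 2 were below those of mouse 1. Such linear sums are decided by the brightest genes, here Spink4 and Zg16, with log2 values of 13.72 to 14.29. The others were at most 12.16 on any array, so the goblet cell sums say little about them.

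**Figure D4:**
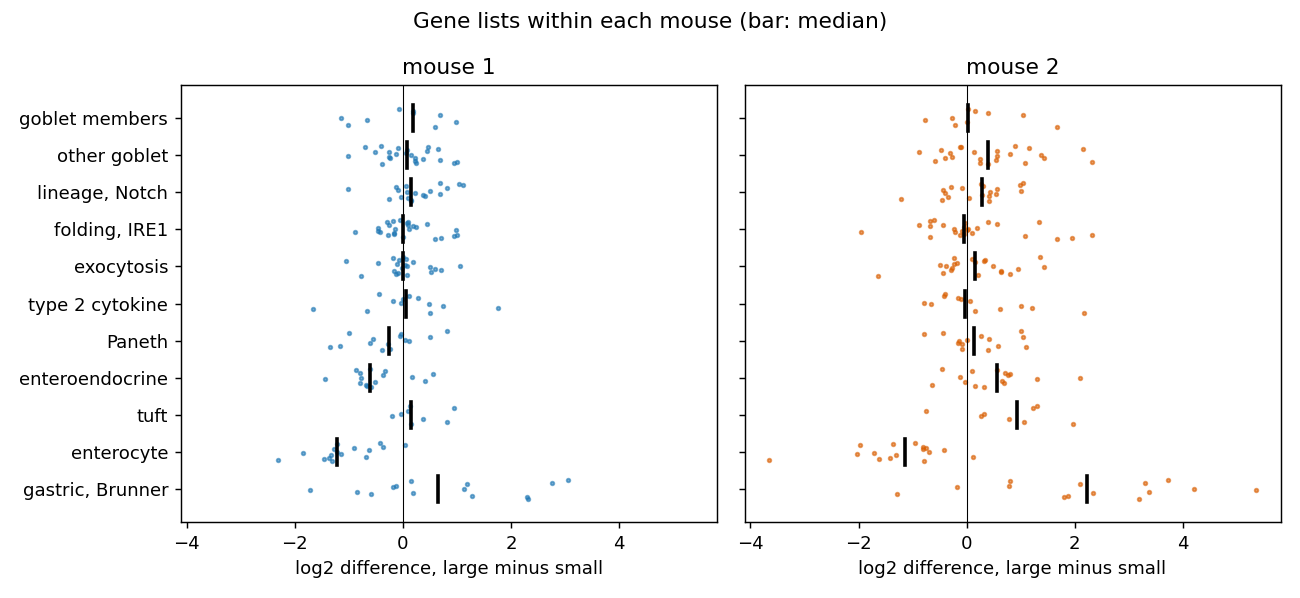
Log2 difference, large minus small, of each tested gene (points) of the goblet cell genes and 10 further lists in mouse 1 (left) and mouse 2 (right), with the list median as a bar; a gene may stand in several lists. The medians of the goblet cell genes (0.19 and 0.02) lie near 0, those of enterocyte markers (-1.22 and -1.14) below it and those of gastric markers (0.65 and 2.22) above it.

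**Figure D5:**
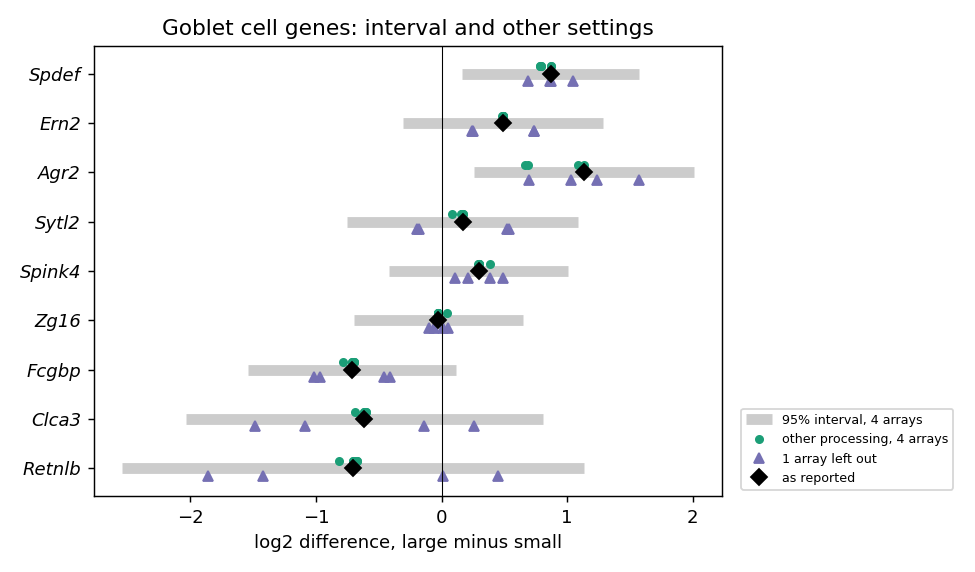
Log2 difference, large minus small, over both mice for the 9 tested goblet cell genes: the reported value (diamond) with its 95% interval (grey bar), other processing of all 4 arrays (circles) and fits with 1 array left out (triangles). The interval lies above 0 for Spdef and Agr2 before adjustment and includes 0 for the other 7 genes.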

How the data were processed

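Total RNA of 4 tumour pools was hybridised to Illumina bead arrays. The deposited scanner table held intensity values on a linear scale that the authors left unnormalized and without background subtraction (BSGX version 3.2.6), per the file headers. The submitters' processing notes name BeadStudio. It also held a deposited count of beads and standard error per probe, and a deposited detection p-value against negative controls. A deposited matrix of intensities that the authors normalized, by a method not given in the sources here, covered 15274 probes and served as an alternative. The series value table held the same values. An example sheet of the submission template was not used, and 0 per-sample columns were left unmapped.

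In R 4.3.3, limma 3.58.1 processed the signals with neqc: background by normexp from the detection p-values, then an offset of 16, quantiles and log2. Probes with detection p under 0.05 on at least 2 arrays were tested with lmFit and eBayes (two-sided, adjusted p under 0.05); the tested probe with the highest mean stood for a gene. The script was tested on simulated data. Symbols were updated through RefSeq names of GRCm38.p6: 27758 probes were already current, 7989 were updated, and 9526 and a further 8 Clca probes kept the file's symbol. An array not well above background enters a within-mouse difference as a bound: at least its value or the lowest detected value. Per the labels, the large and small pools of a number share an animal. As a check, the difference between mice in large pools correlated with that in small pools across probes (Pearson r = 0.216). Without the mouse block, p-values rest on the spread between the 2 pools of a size, which come from different animals. That spread joins animal, pooled tumours and array, and eBayes draws it toward a value shared across probes. Named were all 10 genes with every probe, all measured Clca, resistin-like and Sytl relatives, and up to 6 genes a list, first those that passed, then by size among those with the same direction in both mice. Muc2, Tff3, Xbp1, Ern1, Rab27a, Agr3 and genes not above background were named besides. The members and lists were chosen with earlier results of these data known. No test was run on a list.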

Additional observations from a re-analysis of the deposited data

How the results depend on the processing

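Of 132 values of the 9 tested genes under other settings, 0 passed the test, 123 kept their direction and 9 turned. Apart from Zg16 with median scaling, the turned values came from fits with 1 array left out. In such fits the sizes no longer hold the same animals in equal shares. With 1 array left out, the difference of Clca3 ran from -1.49 to 0.26, of Retnlb from -1.86 to 0.45, of Sytl2 from -0.20 to 0.53 of Zg16 from -0.10 to 0.053, of Ern2 from 0.24 to 0.74 and of Spink4 from 0.10 to 0.49, where the lone pool of a size was assumed to vary like the others. Zg16 was 0.040 with median scaling, with and without the mouse block, and the other tested Sytl2 probes gave -0.26 and -0.13. The differences of Spdef ran from 0.69 to 1.05, of Agr2 from 0.66 to 1.57 and of Fcgbp from -1.02 to -0.41 over all settings; Agr2 was not in the strict filter or the authors' values. The mouse as a block (the pairing of pools by animal) changed no call of a goblet cell gene, and let 120 probes pass, against 0 without it. That count was 0 with the block and no background correction or an offset of 50, 322 with the block and the strict filter, and 457 with the block and median scaling. Without the block it was 2 with median scaling and 0 to 70 with 1 array left out. The cause was not tested. Genes of the 9 higher in both mice numbered 3 to 5, and lower 3, over the processing settings. The count of 5 came with median scaling, where Ern2 was added with 0.065 in mouse 2. Few arrays and, for Agr2, a signal near background limit these values.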

Other observations

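The mean profile of the 9 tested genes over the 4 arrays followed the mouse more than the size, with centred log2 values of 0.29 and -0.19 in large and 0.31 and -0.41 in small pools of mouse 1 and mouse 2. By size the genes in that mean went opposite ways and partly cancelled. Agr2, Spdef, Fcgbp, Ern2 and Spink4 each had a larger mean difference between sizes than between mice. The widest mean differences, mouse 2 minus mouse 1, were those of Retnlb (-1.87) and Clca3 (-1.35). Sytl2 lay closest to the mean profile (root mean square distance 0.0974) and Retnlb farthest (0.768). The 5 other genes closest to it were Chst8, Slc35a2, Tgfb1i1, Tns1 and Tnfrsf25, at distances of 0.0184 to 0.0225. The size of the profile itself was 0.312, which is how far a gene with the same value on all 4 arrays would lie from it. Of the 13906 tested genes, 3389 outside the 9 lay closer to the mean profile than that, so near neighbours were common.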
